A study of Mus musculus with 4 samples.

Results

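Ccl2, Ccl7, Ccl8 and Ccl11, which encode CC chemokines for monocytes and eosinophils, were followed across the stromal cells of the mouse intestine. They were taken by symbol from the 28692 gene rows of the single-cell count matrices, and all 4 were found. They were chosen with earlier results of these data known. The cells were mesenchymal stromal cells (MSC) from the lamina propria, the connective tissue under the epithelium, of C57BL6/Nrj mice. Small intestine and colon were each represented by 2 droplet libraries, replicate 1 and replicate 2. All mice were female, 8 to 10 weeks old and untreated, and the labels give 2 independent experiments with 3 mice each; they do not tie a library to an experiment. In every group the muscularis externa had been stripped and live cells had been sorted as negative for CD45, Ter119, CD31, BP3, EpCAM and L1CAM and positive for Itgb1. The sort was thus set to remove blood, endothelial and epithelial cells and glia, and clusters of such cells are leftovers of it.

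CC chemokines are small secreted proteins with an adjacent pair of cysteines near the amino terminus, and they steer leukocytes through G-protein-coupled receptors. Ccl2 (MCP-1) draws CCR2-bearing monocytes out of the blood, and Ccl7 (MCP-3) shares that receptor. Ccl8 (MCP-2) is a close relative of both, and Ccl11 (eotaxin-1) attracts eosinophils through CCR3. In the gut, monocytes replenish the lamina propria macrophages, and eosinophils are resident cells of the healthy mucosa. Fibroblasts are a well-known source of these chemokines, and Ccl2 is a textbook target of NF-kB.

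All 4 genes lie on the plus strand of chromosome 11 within 81.2 kb (GRCm38, GENCODE vM21), with 3 exons each. Ccl2 (ENSMUSG00000035385, chr11:82035571-82037453) overlaps another annotated gene, Gm17268. Ccl7 (ENSMUSG00000035373, chr11:82045712-82047525) starts 8258 bases beyond Ccl2, and Ccl11 (ENSMUSG00000020676, chr11:82057823-82062955) starts 10297 bases beyond Ccl7. Ccl8 (ENSMUSG00000009185, chr11:82115185-82116799) is 52229 bases further on, with Ccl12 in between. The stretches of coding sequence below show the stretch the family is named for, 60 bases of the GENCODE transcript of each gene, with the codons of the adjacent cysteines in capitals.
Ccl2: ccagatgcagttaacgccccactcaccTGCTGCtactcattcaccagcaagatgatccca
Ccl7: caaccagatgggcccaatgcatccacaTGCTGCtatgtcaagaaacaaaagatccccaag
Ccl8: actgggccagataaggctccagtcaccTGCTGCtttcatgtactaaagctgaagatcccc
Ccl11: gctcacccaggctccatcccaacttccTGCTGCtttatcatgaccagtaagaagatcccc
Over the whole coding sequence the members were 49.8% to 67.7% identical, pair by pair. The longest run of identical bases between any pair of their transcripts was 23 bases, between Ccl2 and Ccl7, and with Ccl12 it was 21 bases. Runs of that length are short for a sequencing read, and the counting kept reads that map to 1 gene, so the 4 counts were read as separate.

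The 4 libraries held 2061 to 16795 cell barcodes and 14341443 to 52269372 UMIs, and 1808 to 14350 cells each were kept after filters and doublet removal. The median depth of kept cells was 6950 and 8810 UMIs in the replicate 1 libraries and 2735 and 3881 UMIs in the replicate 2 libraries. Libraries shared at most 69 barcodes, between the replicate 2 libraries. Replicate number went together with the Cell Ranger version in the file headers, and may go together with the 10x kit, which is not stated per library, so log2 ratios of colon to small intestine within a replicate number are given beside the fold changes. Fibroblasts (FB) were split by markers into Pdgfra-high FB, which lie against the epithelium and carry Bmp genes, and Cd81-high FB, which carry Grem1 and Pi16. The other FB were split, in each intestine by itself, into clusters above and below their joint Fgfr2 level, called Fgfr2-high FB and Fgfr2-low FB. That level was 166 CPM in the small intestine and 105 CPM in the colon. The larger colonic Fgfr2-high cluster (2152 of 3069 cells) had 125 CPM of Fgfr2, close to the 129 and 123 CPM of small intestinal Fgfr2-low clusters 2 and 10, so these names rank clusters within an intestine and not across both. With the 4 libraries clustered together 41.1% of colonic Fgfr2-high FB stayed in their class, and with each cell gated by itself 20.9% to 27.5% of the cells of these 2 classes did. FB numbered 1177 and 13938 cells in the small intestinal libraries and 1756 and 10991 in the colonic libraries, in the order replicate 1, replicate 2 that is kept throughout. Smooth muscle cells (SMC) and pericytes, the contractile cells of vessel walls, formed clusters of their own. Summed eosinophil markers were at most 0.7 CPM, the UMIs of a gene per 1000000 UMIs of the class in that library, in every FB class, and Ccr3, the receptor for Ccl11, had no UMI in any FB.

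Each member had its own order of cell classes. Ccl2 was highest in pericytes of the small intestine, at 1717 and 1426 CPM, and in Cd81-high FB of the colon, at 593 and 813 CPM. Ccl7 was highest in Cd81-high FB of both intestines, at 386 and 199 CPM in the small intestine and 358 and 531 CPM in the colon. Ccl8 was highest in Fgfr2-high FB of the colon, at 267 and 249 CPM. Ccl11 was highest in pericytes, at 3224 and 3497 CPM in the small intestine and 2273 and 1570 CPM in the colon. These orders rest on classes rebuilt from clusters and on 2 libraries an intestine, and they are descriptions with no test. Pericytes were few, 77 and 32 cells in the small intestine and 101 and 71 in the colon, and were not tested either.

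**Figure D1:**
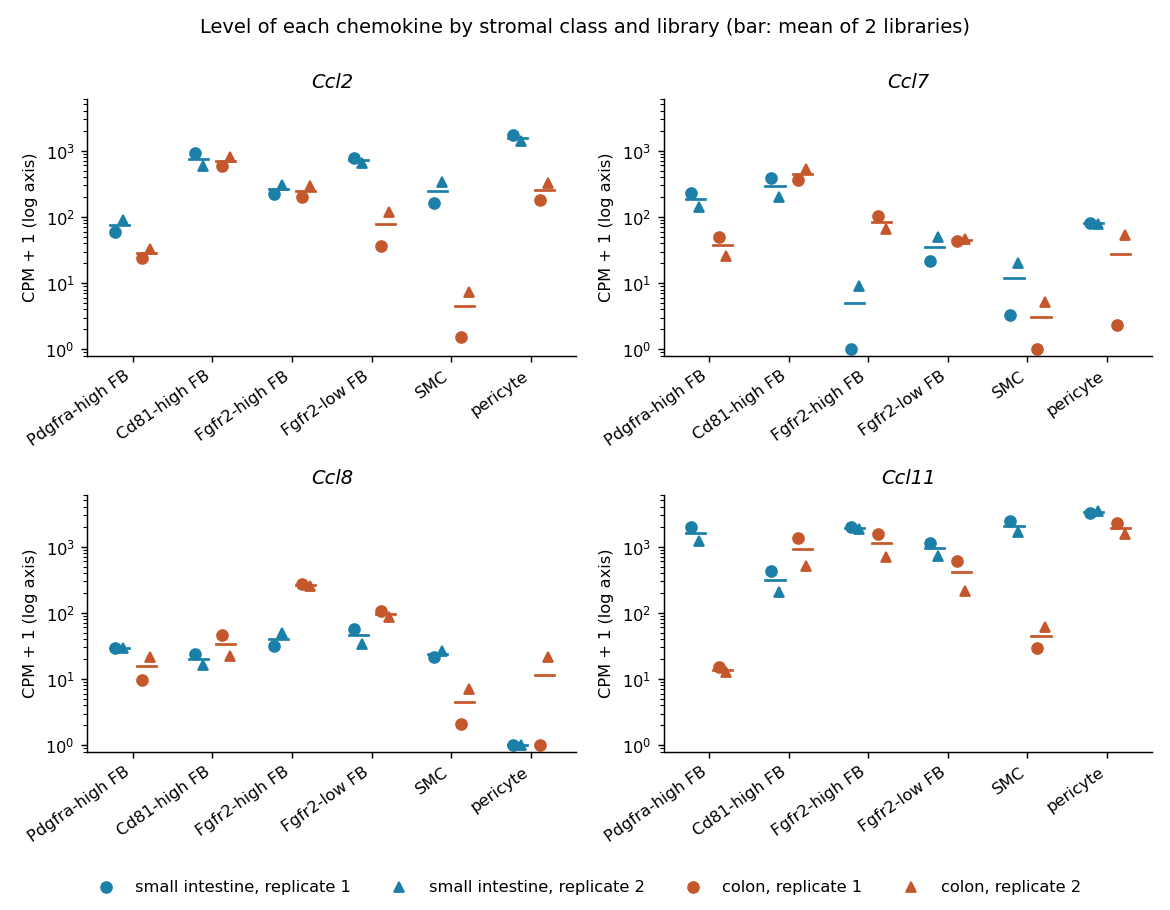
Level of each member (CPM + 1, log axis) by cell class, with 1 point per library, a bar at the mean of the 2 libraries, and small intestine and colon in different colours. Ccl11 in Pdgfra-high FB lay at 1949 and 1214 CPM in the small intestine and at 13.9 and 11.6 CPM in the colon, while in Cd81-high FB the colonic libraries were the higher ones.

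Ccl11, the eosinophil attractant, fell in 2 colonic classes, Pdgfra-high FB and SMC. Small intestinal Pdgfra-high FB had 1949 and 1214 CPM of Ccl11, and colonic ones had 13.9 and 11.6 CPM (88 and 155 UMIs). The level was thus within a narrow range in the colon and far higher in both small intestinal libraries, with no overlap. The fold change on the log2 scale was -6.81 ± 0.43 (SE, n = 2 libraries per intestine, edgeR adjusted p = 0.0209), and within replicates the log2 ratio was -7.13 and -6.70. The call was lost when either small intestinal library was left out, at -6.45 without replicate 1 (edgeR adjusted p = 0.0806) and -7.11 without replicate 2 (edgeR adjusted p = 0.112), while the direction and size held. Colonic Pdgfra-high FB formed 3 clusters, and Ccl11 was low in each, between 0 and 18.7 CPM per library. Summed macrophage markers were also higher in small intestinal Pdgfra-high FB, at 165 and 50.2 CPM against 22.4 and 8.42 CPM. With every cell carrying at least 2 immune or macrophage markers left out, the log2 fold change of Ccl11 was -7.12.

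In SMC the drop of Ccl11 was of the same kind. Small intestinal SMC had 2394 and 1632 CPM, and colonic SMC had 28.0 and 59.2 CPM, so the groups lay far apart. The log2 fold change was -5.52 ± 0.50 (edgeR adjusted p = 0.00812), with -6.42 and -4.78 within replicates. Fibroblast markers moved with it: their sum was 11799 and 17779 CPM in small intestinal SMC and 5992 and 7223 CPM in colonic SMC, and their part in the result was not tested. When each cell was gated by itself the log2 fold change was -2.95 and the call was lost (edgeR adjusted p = 0.0874).

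In the other FB classes Ccl11 was between 204 and 1955 CPM in every library, and no difference passed the test. Fgfr2-high FB had 1955 and 1834 CPM in the small intestine and 1552 and 696 CPM in the colon, without overlap but not past the test (log2 fold change -0.62 ± 0.39, edgeR adjusted p = 0.703, with -0.33 and -1.40 within replicates). Fgfr2-low FB had 1150 and 726 CPM against 603 and 215 CPM (log2 fold change -1.34 ± 0.55, edgeR adjusted p = 0.409, with -0.93 and -1.75 within replicates), and the fold change was -0.084 with the 4 libraries clustered together. Cd81-high FB went the other way, with 424 and 204 CPM in the small intestine and 1334 and 503 CPM in the colon (log2 fold change 1.41 ± 0.59, edgeR adjusted p = 0.515). Both within-replicate ratios of Cd81-high FB were above 0, at 1.65 and 1.30, while the fold change ran from 0.56 without colon replicate 1 to 2.11 without small intestine replicate 1, not called in either.

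Ccl2, the main monocyte attractant, fell in colonic SMC. Small intestinal SMC had 159 and 337 CPM, and colonic SMC had 1 UMI among 1787862 and 14 among 2177572, or 0.559 and 6.43 CPM with exact Poisson 95% intervals of 0.0142 to 3.12 and 3.51 to 10.8 CPM. The groups were far apart in both replicates, and the log2 fold change was -6.05 ± 0.82 (edgeR adjusted p = 0.022), with -8.15 and -5.71 within replicates. With doublets kept it was -4.34 and not called (edgeR adjusted p = 0.238). With each cell gated by itself it was -3.69 and not called (edgeR adjusted p = 0.133). The fibroblast markers given above for these SMC moved the same way, and their part in the Ccl2 result was not tested.

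Among FB classes gated by cluster, the widest gap of Ccl2 between the intestines was in the Fgfr2-low class, and it missed the test. Fgfr2-low FB had 778 and 653 CPM in the small intestine and 34.8 and 118 CPM in the colon, with no overlap. The log2 fold change was -3.29 ± 0.70 (edgeR adjusted p = 0.127). The within-replicate ratios were -4.48 and -2.47, so the colonic libraries differed from each other more than the small intestinal ones. Without colon replicate 1 the log2 fold change was -2.63 (edgeR adjusted p = 0.0461) and without colon replicate 2 it was -4.55 (edgeR adjusted p = 0.0347), both of which would be called. Without small intestine replicate 1 or 2 it was -3.15 and -3.43 and not called (edgeR adjusted p = 0.365 and 0.364). With each cell gated by itself it was -1.63 and not called (edgeR adjusted p = 0.0643), and no longer the widest, since Fgfr2-high FB had -1.69. Cd81-high FB had 909 and 597 CPM against 593 and 813 CPM, and Fgfr2-high FB had 218 and 304 CPM against 201 and 288 CPM, so both classes overlapped between the intestines. Pdgfra-high FB had little Ccl2 in either, 58.2 and 89.7 CPM against 22.8 and 32.3 CPM.

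Small intestinal Fgfr2-low FB were not uniform in Ccl2. Their clusters ranged from 89.3 and 156 CPM in cluster 3, through 480 and 343 CPM in cluster 0 and 1265 and 1156 CPM in cluster 2, to 3459 and 1620 CPM in cluster 10. Cluster 2 was led by Cxcl2, Ereg and Cxcl1, and cluster 10 by the interferon-induced Cxcl9, Ubd and Gbp4. Cluster 10 was small, at 15 and 182 cells, and Ccl2 was not among the genes used to cluster. Colonic Fgfr2-low FB had 77.7 and 149 CPM in 1 cluster and 11.4 and 19.9 CPM in the other.

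Ccl7, the second ligand of CCR2, had its highest level in Cd81-high FB. No difference between the intestines passed the main edgeR test, which had the low-count filter, no replicate block and no thinning. In Cd81-high FB the intestines overlapped, and the log2 fold change was 0.47 ± 0.44 (edgeR adjusted p = 0.890), with -0.11 and 1.41 within replicates. Colonic Cd81-high FB held Ccl7 in 1 of their 2 clusters, at 445 and 694 CPM against 25.1 and 88.1 CPM in the other. Ccl2 went with it, at 741 and 1069 CPM against 21.9 and 117 CPM. Pdgfra-high FB had 231 and 141 CPM of Ccl7 in the small intestine and 48.8 and 25.0 CPM in the colon, without overlap (log2 fold change -2.21 ± 0.42, edgeR adjusted p = 0.0893, with -2.24 and -2.49 within replicates). This difference was called by DESeq2 (adjusted p = 0.000171) and by edgeR without the low-count filter (adjusted p = 0.00728). It was also called with a replicate block, although the labels do not say that a number marks a shared batch. Without colon replicate 1 the log2 fold change was -2.65. Fgfr2-high FB showed the opposite order. Ccl7 had no UMI among 923259 in small intestinal replicate 1, which allows up to 3.25 CPM, and 8.01 CPM in replicate 2. The colon had 102 and 65.3 CPM (log2 fold change 4.0 ± 0.80, edgeR adjusted p = 0.108). Within replicate 2 the log2 ratio was 3.03. Over the alternatives the log2 fold change ran from 1.44 to 11.9, and it was called after thinning alone. In SMC Ccl7 was too low to be tested, at 0 to 14 UMIs a library.

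Ccl8, the MCP-2 gene, rose in colonic Fgfr2-high FB. They had 267 and 249 CPM, against 30.3 and 48.0 CPM in the small intestine, and the colonic libraries were nearly equal. The log2 fold change was 2.83 ± 0.32 (edgeR adjusted p = 0.0348), with 3.14 and 2.37 within replicates. Without small intestine replicate 1 or replicate 2 the log2 fold change was 2.54 and 3.28. The call was lost in both, as was every other call in this class. The call of Ccl8 was also lost with each cell gated by itself (2.30, edgeR adjusted p = 0.102). Of the 2 colonic clusters in this class, the one led by Ces1g, Cd36 and Cxcl9 had 510 and 352 CPM and the other had 144 and 197 CPM, so both were above the small intestinal class. Fgfr2-low FB had 56.5 and 33.2 CPM in the small intestine and 105 and 84.8 CPM in the colon (log2 fold change 0.97 ± 0.33, edgeR adjusted p = 0.311, with 0.90 and 1.35 within replicates). Cd81-high FB had 22.8 and 15.1 CPM against 44.5 and 21.1 CPM, and Pdgfra-high FB had 28.1 and 28.0 CPM against 8.72 and 20.2 CPM, neither past the test. SMC went the other way from Fgfr2-high FB, with 20.4 and 25.0 CPM of Ccl8 (9 and 18 UMIs) in the small intestine and 1.12 and 5.97 CPM (2 and 13 UMIs, exact Poisson 95% intervals of 0.136 to 4.04 and 3.18 to 10.2 CPM) in the colon. The groups did not overlap, and the log2 fold change of -2.61 ± 0.71 missed the test (edgeR adjusted p = 0.141), with -4.19 and -2.07 within replicates. It was called without the low-count filter (-2.55, edgeR adjusted p = 0.000867) and without colon replicate 2 (-4.21, edgeR adjusted p = 0.00886), and it was -0.15 with doublets kept.

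For Ccl8 the RefSeq table of promoters held the bases before the start of the gene, shown here since its level differed between the intestines. The 250 bases upstream (GRCm38.p6, chr11:82114935-82115184, plus strand) are given with the TATAAA motif in capitals.
Ccl8 upstream: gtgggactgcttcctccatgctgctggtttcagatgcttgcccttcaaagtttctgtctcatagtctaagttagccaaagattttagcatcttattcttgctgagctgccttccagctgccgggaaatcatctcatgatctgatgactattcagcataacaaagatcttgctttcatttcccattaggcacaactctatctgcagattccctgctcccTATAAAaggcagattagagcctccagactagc
TATAAA began 32 bases before the start, and 12.4% of 32851 promoters held it somewhere on either strand in the same window. Searches on both strands for TTCNNNGAA (GAS-like, in 7.02% of promoters) and TGANTCA (AP-1-like, in 6.75%) found no match in these bases.

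Over all FB as 1 sum, no member was called between the intestines. Ccl2 had 648 and 539 CPM in the small intestine and 142 and 289 CPM in the colon (log2 fold change -1.5 ± 0.47, edgeR adjusted p = 0.327). Ccl8 had 39.2 and 30.7 CPM against 122 and 87.5 CPM (log2 fold change 1.51 ± 0.25, edgeR adjusted p = 0.114). Both were apart in every library, and neither passed the test. Ccl11 had 1136 and 814 CPM against 795 and 327 CPM, and Ccl7 had 163 and 86.9 CPM against 95.6 and 155 CPM. Within replicates the log2 ratios were -2.19 and -0.90 for Ccl2, 1.64 and 1.51 for Ccl8, -0.52 and -1.32 for Ccl11 and -0.77 and 0.83 for Ccl7. In bulk sums such as these a change in the makeup of the FB and a change per cell cannot be told apart.

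By the call rule, an adjusted p below 0.05 and a log2 fold change beyond 1.5 either way, 0 of 4 members were called in all FB, where 0.512% of all genes tested were called. At an unadjusted p below 0.05 there were 2 in edgeR, and DESeq2 called 1. In Pdgfra-high FB 1 of 4 was called, against 1.5% of genes, and in Fgfr2-high FB 1 of 4, against 1.36% of genes. In Fgfr2-low FB 0 of 4 were called by edgeR, against 2.14% of genes, with 2 at an unadjusted p below 0.05 and 1 called by DESeq2. In Cd81-high FB 0 of 4 were called by edgeR or DESeq2, against 0.96% of genes, and none had an unadjusted p below 0.05 in edgeR. In SMC 2 of the 3 members tested were called, against 3.03% of genes.

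**Figure D2:**
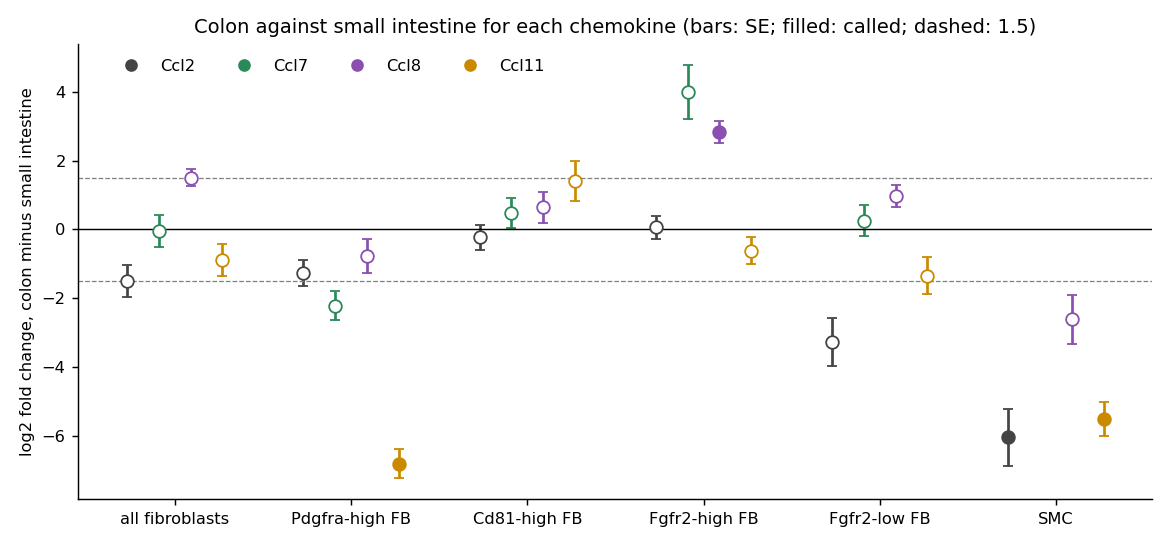
Log2 fold change of each member, colon minus small intestine, in all FB, the 4 FB classes and SMC, with bars for the standard error of the edgeR fit (n = 2 libraries per intestine) and filled points for calls. Ccl11 spans from -6.81 in Pdgfra-high FB to 1.41 in Cd81-high FB, while Ccl8 is called in Fgfr2-high FB alone.

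Whether the difference between the intestines itself differed between FB classes was tested over the 6 pairs of classes. For Ccl11 the difference was 8.05 ± 0.53 larger on the log2 scale in Cd81-high FB than in Pdgfra-high FB (edgeR adjusted p = 9.3e-05). In Fgfr2-high FB it was 5.94 ± 0.51 larger than in Pdgfra-high FB (edgeR adjusted p = 0.000539), and in Fgfr2-low FB 5.24 ± 0.51 larger (edgeR adjusted p = 0.000686). These 3 were called with each library left out in turn and with each cell gated by itself. The Ccl11 effect was also lower in Fgfr2-high FB than in Cd81-high FB, by -2.11 ± 0.46 (edgeR adjusted p = 0.0346), and lower in Fgfr2-low FB than in Cd81-high FB, by -2.81 ± 0.46 (edgeR adjusted p = 0.0128). Leaving out any 1 of the 4 libraries ended the former call, with values from -2.64 to -1.55, and leaving out small intestine replicate 1 (-3.06) or replicate 2 (-2.59) ended the latter. With each cell gated by itself they were -1.49 and -1.52, neither called.

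For Ccl2 the effect in Fgfr2-low FB was lower than in Cd81-high FB, by -3.18 ± 0.58 (edgeR adjusted p = 0.0198), and lower than in Fgfr2-high FB, by -3.39 ± 0.59 (edgeR adjusted p = 0.018). For Ccl7 the effect in Fgfr2-high FB was higher than in Pdgfra-high FB, by 5.82 ± 1.14 (edgeR adjusted p = 0.0256). Leaving out any 1 of the 4 libraries ended each of these 3 calls: the values ran from -4.04 to -2.66, from -4.20 to -2.92 and from 5.31 to 14.4, the last of these being without small intestine replicate 2, where Ccl7 in Fgfr2-high FB rests on the library with no UMI. With each cell gated by itself the Ccl2 difference was -0.78 against Cd81-high FB (edgeR adjusted p = 0.883) and 0.12 between the Fgfr2 classes, and that of Ccl7 was 3.29, none of them called. With all 4 libraries no Ccl8 difference was called. The one with the smallest adjusted p, Fgfr2-high against Pdgfra-high FB, was 3.28 ± 0.79 (edgeR adjusted p = 0.0594), and it was called without colon replicate 2 (4.22, edgeR adjusted p = 0.0214). Of all 13007 genes tested, the share called was 6.2% for Cd81-high against Pdgfra-high FB, 3.91% for Fgfr2-high against Pdgfra-high FB, 6.0% for Fgfr2-low against Pdgfra-high FB, 4.26% for Fgfr2-high against Cd81-high FB, 3.46% for Fgfr2-low against Cd81-high FB and 3.24% for Fgfr2-low against Fgfr2-high FB.

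Which FB class held most of the transcripts of a member differed between the intestines. Of the Ccl2 UMIs in FB, Fgfr2-low FB held 52.8% and 61.9% in the small intestine and 4.14% and 10.2% in the colon. Cd81-high FB held 42.4% and 27.7% of Ccl2 in the small intestine and 38.4% and 64.2% in the colon, where Fgfr2-high FB held 51.5% and 22.3%, so the colonic libraries differed in the leading class. Ccl8 moved between the Fgfr2 classes: Fgfr2-high FB held 7.59% and 25.5% of it in the small intestine and 79.4% and 63.5% in the colon. Of the Ccl7 UMIs, Cd81-high FB held 71.9% and 57.1% in the small intestine and 34.5% and 78.3% in the colon. In colon replicate 1 Fgfr2-high FB held the most Ccl7, 38.8%, against 9.43% in replicate 2. Pdgfra-high FB held 27.3% and 11.6% of Ccl11 in the small intestine and 0.658% and 1.07% in the colon, although they were 584 of 1756 and 3320 of 10991 colonic FB. These shares move with the number of cells of each class that was caught.

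**Figure D3:**
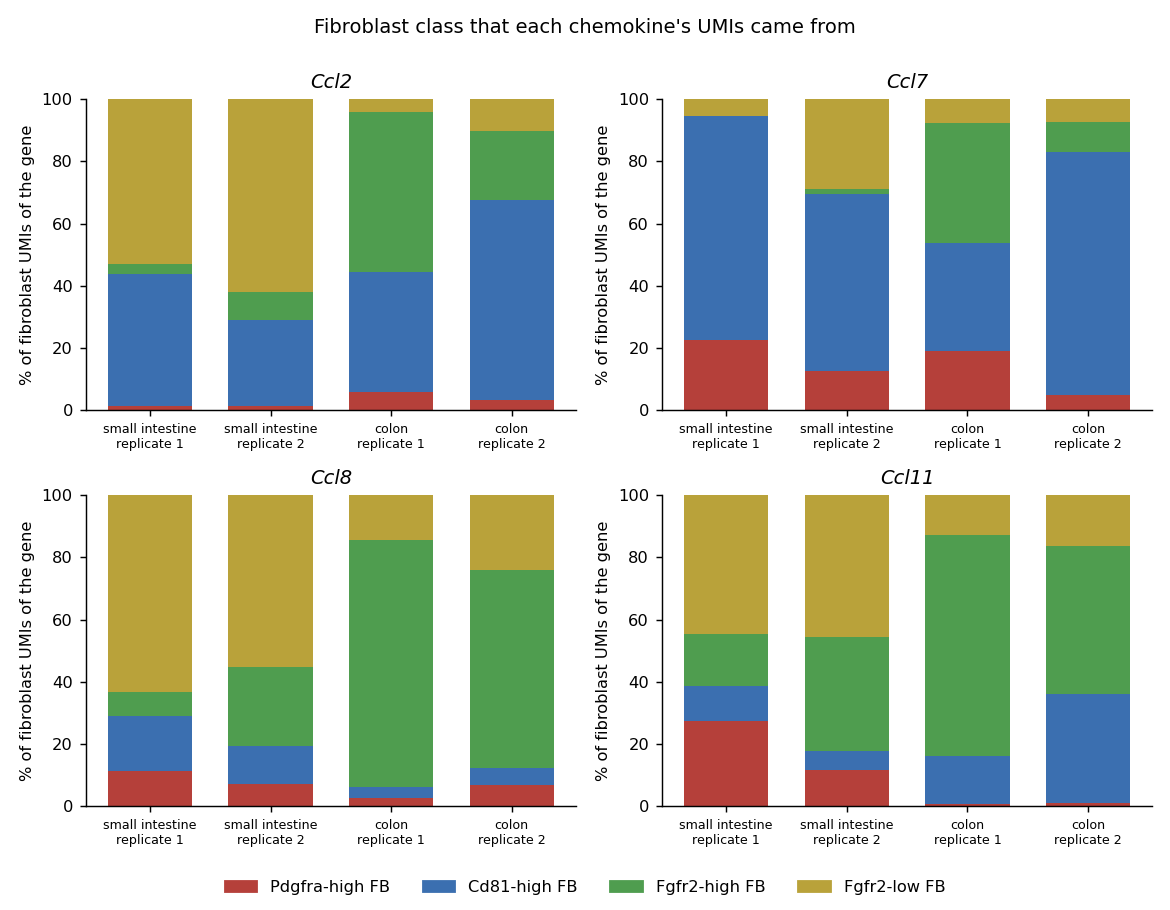
Share of the UMIs of each member found in FB (percent) that came from each FB class, with 1 stacked bar per library. Ccl2 and Ccl8 are held mainly by different classes in the small intestine and in the colon.

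The share of cells with a UMI differed between members and between classes. To compare shares of cells across depths, each cell was thinned to 1000 UMIs. Ccl2 was then found in 23.4% and 23.3% of small intestinal Fgfr2-low FB and in 3.98% and 7.04% of colonic ones (34.6%, 34.7%, 8.87% and 14.8% unthinned). Ccl11 was found in 56.5% and 53.3% of small intestinal Pdgfra-high FB and in 0.685% and 0.813% of colonic ones (75.9%, 67.9%, 3.42% and 2.02% unthinned). Ccl8 was found in 5.59% and 4.08% of small intestinal Fgfr2-high FB and in 13.0% and 13.0% of colonic ones (11.9%, 9.45%, 39.6% and 28.6% unthinned). Ccl7 was found in 11.2% and 8.87% of small intestinal and in 14.1% and 17.5% of colonic Cd81-high FB (19.5%, 14.7%, 26.1% and 27.9% unthinned). In every library the 10% of FB with the most Ccl2 held 76.4% to 98.2% of its UMIs, and for Ccl11 the top 10% held 46.4% to 67.3%.

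Plasma cells, which should lack these genes, were taken as a gauge of background. In small intestinal replicate 1 the 61 plasma cells were clean: thinned, none had Ccl2, Ccl7 or Ccl8, which allows a share of up to 4.92%, and 3.28% had Ccl11. Their median depth was 26922 UMIs, against 8402 UMIs in FB of that library. In the other libraries plasma cells were few and carried RNA of other cells. The 40 of small intestinal replicate 2 (median 4695.5 UMIs) had 15039 CPM of fibroblast markers, against 390 CPM in replicate 1, and 57.5% had Ccl11. These cells carried fibroblast RNA themselves, so they cannot set a background for FB of that library, and no share was read against them. Thinned shares of Ccl11 there were 53.3% in Pdgfra-high FB, 13.9% in Cd81-high FB, 40.6% in Fgfr2-low FB and 68.7% in Fgfr2-high FB. The 17 and 10 colonic plasma cells (medians 9268 and 5757.5 UMIs) had 1285 and 7323 CPM of macrophage markers, and 17.6% and 20.0% had Ccl8, with exact 95% intervals of 3.80% to 43.4% and 2.52% to 55.6%. Cells so few and with macrophage RNA cannot set a background for FB either. In the colon the thinned shares of Ccl8 were 13.0% and 13.0% in Fgfr2-high FB and 6.73% and 7.08% in Fgfr2-low FB. They were 2.51% and 1.62% in Cd81-high FB and 0.856% and 1.23% in Pdgfra-high FB. Thinned, 0 of 237 and 0 of 24 colonic endothelial cells had Ccl8, which allows up to 1.27% and 12.5%. RNA of other cells was present in levels too. Plasma cells had 1356 CPM of Ccl11 in small intestinal replicate 2, above the 1214 CPM of Pdgfra-high FB there. In replicate 1 they had 78.9 CPM, against 1949 CPM in Pdgfra-high FB. In colon replicate 2 they had 269 CPM of Ccl8 (16 UMIs), against 249 CPM in Fgfr2-high FB, and in colon replicate 1 118 CPM (22 UMIs), against 267 CPM. The levels were not corrected for it, and its part in the differences between the intestines was not tested.

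**Figure D4:**
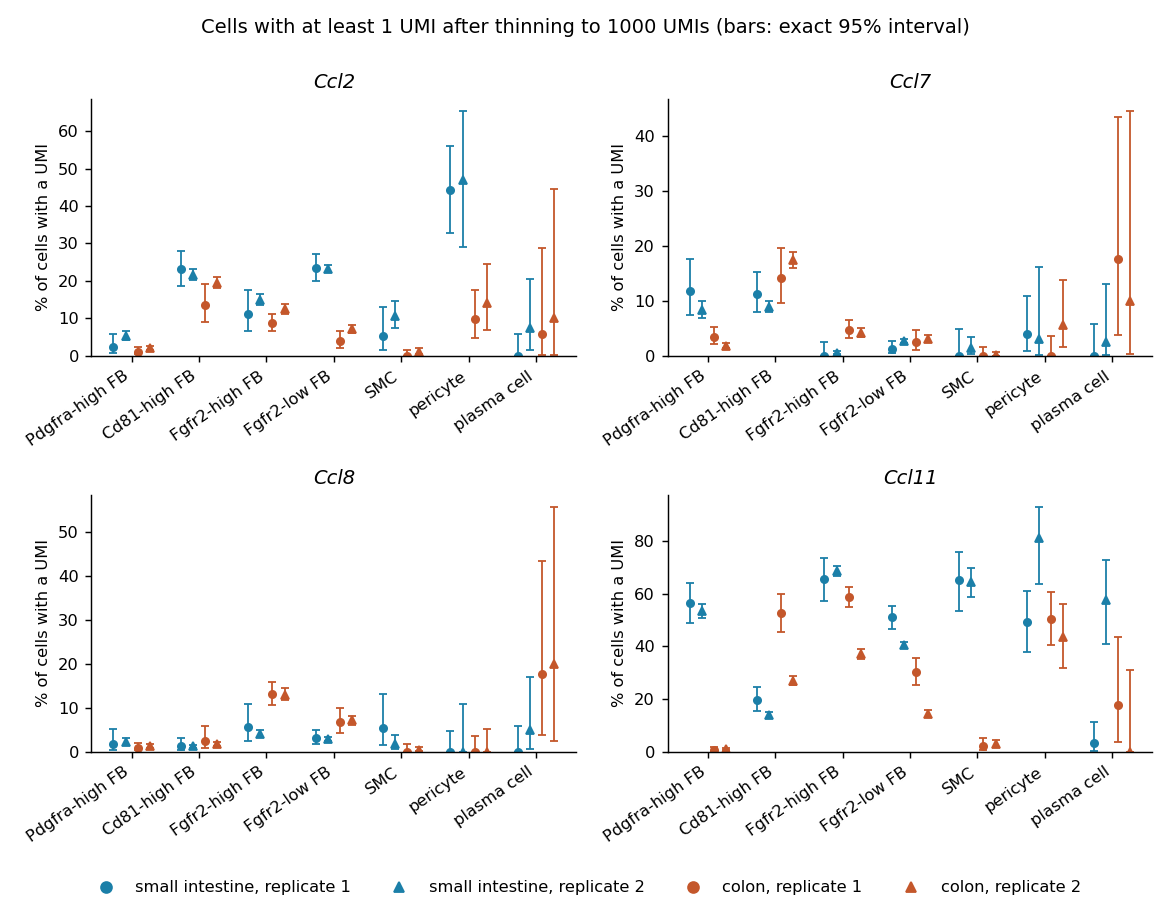
Share of cells (percent) with at least 1 UMI of each member after each cell was thinned to 1000 UMIs, by class and library, plasma cells included, with exact 95% binomial intervals that cover counting error only. Ccl11 is found in over 50% of small intestinal and under 1% of colonic Pdgfra-high FB.

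Ccl2 and Ccl7 were found in the same Cd81-high FB more often than their separate shares give. After thinning, 21, 120, 9 and 201 Cd81-high FB had both in the small intestinal and then the colonic libraries, where independent detection would give 8.55, 60.4, 3.8 and 90.2 cells. Among Ccl7-bearing Cd81-high FB, 56.8%, 42.9%, 32.1% and 43.4% had Ccl2, against 23.1%, 21.6%, 13.6% and 19.5% of all Cd81-high FB. Other classes had such an excess in some libraries. In the small intestine 1 and 96 Fgfr2-low FB had both, where independence gives 1.64 and 42.1. In the colon 4 and 27 Fgfr2-high FB had both, where independence gives 2.6 and 12.8. Classes pool clusters that differ in level, and the part of this was not tested. Ccl8 and Ccl11 in Fgfr2-high FB were found together close to the number for independent detection, in 8, 76, 52 and 130 cells against 5.26, 69.4, 49.3 and 117. These are counts of cells within a library and carry no test.

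Over FB clusters the level of Ccl2 went with that of the NF-kB genes and with that of the interferon response genes. Across the 18 sums of cluster and library in each intestine, log2(CPM + 10) of Ccl2 and of the summed list of 16 NF-kB components and response genes had a Pearson r of 0.948 in the small intestine and 0.643 in the colon. Over both intestines r was 0.775 for Ccl2, 0.288 for Ccl7, 0.083 for Ccl8 and 0.127 for Ccl11. With the summed interferon list r for Ccl2 was 0.808 in the small intestine, 0.664 in the colon and 0.807 over both, the colonic and the joint value being above those with the NF-kB list. With the immediate-early list it was 0.689, 0.563 and 0.27. The small intestinal clusters with the most Ccl2, 2 and 10, had NF-kB sums of 12044 and 11858 CPM and of 10565 and 9661 CPM, against 1607 and 2939 CPM in cluster 3. In the colon the Dmp1-led cluster of Pdgfra-high FB lay off this line, with NF-kB sums of 4512 and 5068 CPM and 1.83 and 31.3 CPM of Ccl2. Points share libraries and depth, several of the listed genes lead these clusters, and immediate-early genes, which tissue dissociation is known to raise, moved too: their sum was 44873 and 48057 CPM in cluster 2 and 9824 and 22418 CPM in cluster 3. Their part in the Ccl2 level was not tested.

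**Figure D5:**
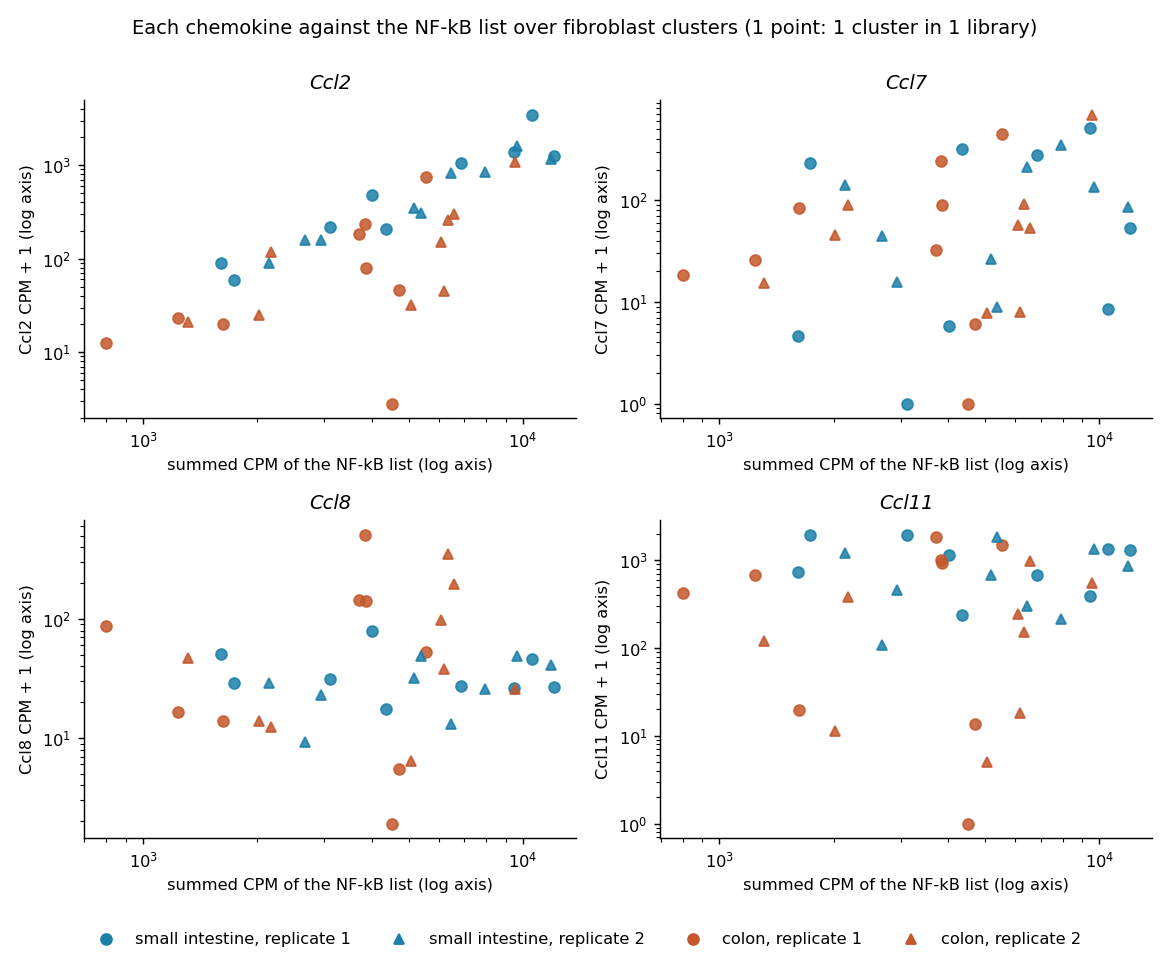
Level of each member (CPM + 1) against the summed NF-kB list (CPM), both on log axes, with 1 point per FB cluster and library, coloured by intestine. Ccl2 rises along the NF-kB sum in the small intestine, with r = 0.948 over 18 points, and the other members do not line up with it over both intestines.

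The gene lists around the pathway were mostly uncalled between the intestines in FB. Of the 16 NF-kB genes, 0 were called in all FB, Cd81-high FB and Fgfr2-high FB. In Pdgfra-high FB 1 was called, Ptgs2, the inducible cyclooxygenase, which rose from 124 and 147 CPM to 617 and 641 CPM (log2 fold change 2.35 ± 0.29, edgeR adjusted p = 0.0381). In Fgfr2-low FB Cxcl5, a neutrophil attractant, fell from 67.3 and 75.6 CPM to 5.63 and 5.82 CPM (log2 fold change -3.73 ± 0.25, edgeR adjusted p = 0.0193). Among FB classes gated by cluster, this was also the class with the widest gap of Ccl2. The median over the list there was -0.89, against -0.01 over all genes tested. In SMC 10 of the 16 were called lower in the colon, with a median of -2.75 against 0.001 over all genes tested. Among them were Il6, Cxcl1, Vcam1 and Nfkbia, in the class where Ccl2 and Ccl11 fell. Fibroblast markers were lower in colonic SMC too, and their part was not tested. Over all genes 284 were called in SMC, 31 with doublets kept and 0 with each cell gated by itself. Of the 12 interferon response genes, 2 were called lower in Fgfr2-low FB. Among them was Gbp2, a guanylate-binding protein gene (log2 fold change -1.93 ± 0.22, edgeR adjusted p = 0.0325). The median over the interferon list there was -1.58, further from the median of all genes than the -0.89 of the NF-kB list. Irf1 fell in SMC, and 0 were called by edgeR in the other 4 comparisons.

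Among the 18 receptors for cytokines that can drive chemokines, Il1rl1, which encodes the IL-33 receptor ST2, rose in the colon, from 0.668 and 2.31 CPM to 164 and 105 CPM in Pdgfra-high FB (log2 fold change 6.41 ± 0.53, edgeR adjusted p = 0.0227). It was called in all FB too (log2 fold change 7.93 ± 0.53, edgeR adjusted p = 0.0367). Its ligand Il33, an alarmin, fell in the same Pdgfra-high FB, from 46.8 and 45.2 CPM to 0.951 and 0.977 CPM (log2 fold change -5.39 ± 0.33, edgeR adjusted p = 0.0209), and in Fgfr2-low FB (log2 fold change -3.41 ± 0.23, edgeR adjusted p = 0.0193). In SMC 1 receptor, Osmr, was called lower, and of the 5 support genes tested Il33 and Cxcl12 were called lower. The SMC genes named here were chosen after their values were seen. With either small intestinal library left out, 0 genes were called by edgeR in all FB, Pdgfra-high FB or Fgfr2-low FB, so the calls of Ptgs2, Cxcl5, Gbp2, Il1rl1 and Il33 in these FB rest on both, and 0 were called in all FB without colon replicate 2. No gene of the immediate-early and stress list was called in any of the 6 comparisons in edgeR, although its median was between 0.34 and 1.41 in FB.

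By their profile over the 16 sums of FB class and library, the genes most like each member were unlike each other. Among 12478 genes the largest Pearson r of log2(CPM + 10) was with Slc16a1 (0.936), Il33 (0.924) and Il6 (0.922) for Ccl2. For Ccl7 it was with Adamtsl1 (0.919) and Igdcc4 (0.878), for Ccl8 with Rrm2 (0.894) and St6galnac5 (0.881), and for Ccl11 with Hs3st1 (0.948) and C1qtnf7 (0.907). Between members r was 0.44 for Ccl2 and Ccl11, 0.416 for Ccl8 and Ccl11, 0.307 for Ccl2 and Ccl7, and between -0.16 and 0.04 for the other 3 pairs. The sums share libraries and depth, and no p is given.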

How the data were processed

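MSC were profiled by droplet single-cell RNA-seq in 4 libraries, 2 of small intestine and 2 of colon. Libraries came from a 3′ v3 or a 5′ kit. Cell Ranger was run by the authors against mm10, version 3.0.2 for replicate 1 and 3.1.0 for replicate 2 per the file headers. The processing notes also name Seurat 3. The deposited matrices hold whole UMI counts by gene and barcode, before any normalization.

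Kept barcodes had 500 genes or more, 1000 UMIs or more and 10% or less of their UMIs from mitochondrial genes. Doublets were removed at a scrublet score above 0.2 (scanpy 1.11.5), a limit set after the automatic one had marked 11, 1, 32 and 458 cells. It removed 26, 913, 45 and 535. Each intestine was clustered by itself on 2000 variable genes and 30 components at resolution 0.8 (Seurat 5.3.0), with members and listed genes left out of the variable genes, and clusters were gated by marker lists. No cell annotation by the authors was used. UMIs were summed per class and library and tested with edgeR 4.0.16 (quasi-likelihood, TMM, filterByExpr, R 4.3.3), colon against small intestine, with Benjamini-Hochberg adjustment over all genes tested. The script was tested on simulated data. Calls needed an adjusted p below 0.05 and a log2 fold change beyond 1.5. CPM are UMIs of a gene per 1000000 UMIs of the class in that library, Poisson intervals and shares are exact at 95%, a count of 0 was given a limit of 3 counts, and all intervals cover counting error only. Libraries were the replicates; the labels do not say how the mice of an experiment were divided, so p-values measure the spread between libraries. Alternatives were DESeq2 1.42.0, no low-count filter, a replicate block, leaving out each library, at least 1000 genes, doublets kept, resolutions 0.5 and 1.2, the 4 libraries clustered together, each cell gated by itself, removal of cells with immune markers, and thinning to 1000 UMIs.

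The members, gene lists and tests were chosen with earlier results of these data known. All 4 members are named. Of the lists, at most 6 genes each are named, those called in the most FB comparisons; some listed genes are not reported here.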

Additional observations from a re-analysis of the deposited data

Results flagged for a closer look

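The difference between the intestines differed between FB classes, by a test of that difference, for 8 pairs of member and classes. Each value is the log2 fold change, colon minus small intestine, in the class named first minus that in the class named second, with the standard error of the edgeR fit over 2 libraries per intestine and class. For Ccl11 it was 8.05 ± 0.53 for Cd81-high against Pdgfra-high FB, 5.94 ± 0.51 for Fgfr2-high against Pdgfra-high FB and 5.24 ± 0.51 for Fgfr2-low against Pdgfra-high FB. Against Cd81-high FB it was -2.11 ± 0.46 for Fgfr2-high FB and -2.81 ± 0.46 for Fgfr2-low FB. For Ccl2 it was -3.18 ± 0.58 for Fgfr2-low against Cd81-high FB and -3.39 ± 0.59 for Fgfr2-low against Fgfr2-high FB. For Ccl7 it was 5.82 ± 1.14 for Fgfr2-high against Pdgfra-high FB. The 3 Ccl11 values against Pdgfra-high FB were called with each library left out and with each cell gated by itself, and the other 5 were each lost with at least 1 library left out and with each cell gated by itself.

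A signal outside the comparisons was Ccl2 in endothelial cells, which the sort was set to remove. In small intestinal replicate 1 a cluster of 101 cells led by Ccl21a, Mmrn1 and Lyve1, genes of lymphatic endothelium, had 2022 CPM of Ccl2 (980 UMIs). The like cluster of colon replicate 1 had 1 UMI in 62 cells, or 3.39 CPM. The cluster's other library held 2 cells in the small intestine and 1 cell in the colon, so the difference between the intestines was not tested.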

How the results depend on the processing

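With 2 libraries per intestine, leaving out 1 leaves an arm with a lone library, which is assumed to vary like the others, and the split of Fgfr2-high from Fgfr2-low FB depends on the clustering. Of 344 log2 fold changes under alternatives, 307 kept their direction and side of the threshold. The number of members called in all FB was 1 under DESeq2 (Ccl2) and 1 with the replicate block (Ccl8). In Pdgfra-high FB it was 2 under DESeq2, without the low-count filter and with the replicate block (Ccl11 and Ccl7 each time), and 0 to 2 with a library left out. In Fgfr2-high FB it was 0 with each cell gated by itself, 2 after thinning and 0 to 1 with a library left out. In Fgfr2-low FB it was 1 (Ccl2) under DESeq2 and after thinning, and 0 to 1 with a library left out. In SMC it was 1 with doublets kept, 0 with each cell gated by itself, and 3, with Ccl8, under the replicate block, without the low-count filter and without colon replicate 2. The called differences between classes numbered 3 rather than 8 with each cell gated by itself and 3 to 5 with a library left out; of the 8 themselves 3 or 4 were called with a library left out, and the 5 without colon replicate 2 include one of Ccl8. The causes were not tested.

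Reversed values were all of log2 fold changes that were not called, except the last. Ccl7 in all FB became 0.25 after thinning, 0.0011 without cells with immune markers, and 0.31 and 0.47 without colon or small intestine replicate 1 (range with a library left out -0.53 to 0.47). Ccl8 in Pdgfra-high FB became 0.10 with each cell gated by itself. Ccl2 in Cd81-high FB became 0.0023 and 0.19 without colon or small intestine replicate 1 (range -0.51 to 0.19). Ccl2 in Fgfr2-high FB became -0.26 with the 4 libraries clustered together, -0.033 and -0.84 at resolutions 0.5 and 1.2, -1.69 with each cell gated by itself, -0.059 after thinning, and -0.27 and -0.18 without colon replicate 2 or small intestine replicate 1 (range -0.27 to 0.37). Ccl7 in Fgfr2-low FB became -0.24 without small intestine replicate 1 (range -0.24 to 1.01). The Ccl2 difference between Fgfr2-low and Fgfr2-high FB became 0.12 with each cell gated by itself. Of 80 shares of cells, 70 moved beyond their interval without thinning.

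Libraries of the same replicate number deviated together (r = 0.789 over 13854 genes in all FB, 2 pairs), but the labels do not say that a number marks a shared batch. Genes called with the replicate block, against the fit without it, numbered 910 against 71 in all FB, 946 against 173 in Pdgfra-high FB, 508 against 111 in Cd81-high FB, 754 against 162 in Fgfr2-high FB, 799 against 257 in Fgfr2-low FB and 742 against 284 in SMC. Under DESeq2 they numbered 569, 584, 241, 404, 541 and 391 in that order, and without the low-count filter 313, 581, 427, 490, 494 and 744. With a library left out they ranged over 0 to 105, 0 to 567, 90 to 314, 0 to 407, 0 to 255 and 148 to 516. With each cell gated by itself they were 46, 21, 24, 74, 103 and 0.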

Other observations

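Other CC chemokines were scarce in FB beside the 4 members. Of 17 others, 9 had enough UMIs to be tested in all FB, and 0 were called by edgeR in any of the 6 comparisons. Ccl27a had 21.6 and 13.6 CPM in the small intestine and 19.6 and 16.8 CPM in the colon, and Ccl25, the ligand of the gut-homing receptor CCR9, had 3.93 and 7.72 against 5.41 and 7.09 CPM. Ccl12, the gene between Ccl11 and Ccl8, had 0.69 to 2.85 CPM. The receptors Ccr1 and Ccr2 had at most 6 UMIs in the FB of any library. Ackr1, a decoy receptor of inflammatory chemokines, had 4.14 and 5.29 CPM in the small intestine and 2.61 and 9.67 CPM in the colon, and Ackr2, another, had 0 and 0.0767 CPM (0 and 3 UMIs) in the small intestine and 0.891 and 0.971 CPM in the colon, with 0 of the list's 2 tested genes called.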
